A study of Rattus norvegicus with 18 samples.

Results

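The 8 genes described here make or carry heme, and were taken by symbol from the 38445 genes counted in the dorsal hippocampus of 18 rats. They are Hbb and Hba-a2, which encode a beta and an alpha chain of hemoglobin, Alas2, the erythroid form of the first enzyme of heme synthesis, and Alas1, Alad, Urod, Cpox and Fech, enzymes of the pathway from its first to its last step that most tissues use. The 8 were chosen by their CPM levels by treatment in these same rats, so the differences between treatments in these 8 genes are described and not tested.

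The study asked how gene expression in the hippocampus differs during chronic ethanol drinking and during withdrawal from it. All rats were adult male Sprague Dawley rats, bought at 75 to 85 days of age, and each of the 3 groups had 6. Control rats drank the control Lieber-DeCarli liquid diet, a nutritionally complete diet that is given as the only food, for 16 days. Ethanol rats, after a stepwise rise in ethanol during the week before, drank the diet with 9% (v/v) ethanol for 16 days and were killed without withdrawal (0 h), and withdrawal rats, after the same rise, drank it for 15 days and then control diet for 24 h. Every group thus received a liquid diet. Rats were anesthetized with isoflurane and decapitated, and the methods for these brains do not mention perfusion, so whether blood was left in the tissue is not known. In such bulk RNA, fewer cells of a type and less RNA per cell cannot be told apart. Read pairs were assigned to the exons of genes by strand, and the counts on genes added up to 30873228 to 42679748 per rat (median 36302755). Levels are given as CPM, counts set against the size of the library and scaled between rats by the trimmed mean of M values (TMM). The library of withdrawal rat 5 stood apart in markers of the tissue. Its CPM was the lowest of all 18 rats for Slc17a7, Neurod6, Wfs1 and Prox1, genes of excitatory hippocampal neurons (376, 73.1, 75.5 and 52.9, against at least 534, 98.0, 124 and 72.9 in the other rats), and the highest for Gad1, of inhibitory neurons, and Acta2, of smooth muscle (413 and 73.1, against at most 339.9 and 32.6).

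Heme is an iron-containing ring built in 8 enzyme steps that begin and end in the mitochondrion. The first step, in which glycine and succinyl-CoA are joined, sets the pace. Nearly all cells use Alas1 for it, and red cell precursors use Alas2, which is X-linked. Alad, the cytosolic second enzyme, joins the products in pairs, Urod and Cpox trim the side chains of the ring, and Fech inserts iron. Adult hemoglobin holds 2 alpha and 2 beta chains, each with a heme. Immature red cells (reticulocytes) still carry globin and Alas2 transcripts, and low levels of globin transcripts have also been described in brain cells.

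The deposited annotation of Rnor_6.0 placed Hbb at chr1:168971269-168972680, Hba-a2 at chr10:15589364-15590207, Alas2 at chrX:23167576-23187356 and Alas1 at chr8:114927704-114941038. It placed Alad at chr5:78368867-78379206, Urod at chr5:135855429-135859515, Cpox at chr11:44039665-44049648 and Fech at chr18:59941992-59975192. All 8 lie on the minus strand, and counts cover their exons. The span of Alas2 overlaps that of Las1l, a ribosome assembly gene on the same strand with a mean of 83.7 CPM, so some read pairs there may have been unassigned. Alpha globin genes have near-identical copies, and read pairs that fit several places equally were left out of the counts, so the split between Hba-a2 and Hba-a1 is uncertain.

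The 250 bases before the start of Hbb, Hba-a2 and Alas1 are printed because the globins and Alas1 stand for the 2 patterns found below. They come from RefSeq (GRCr8) and read 5′ to 3′ on the minus strand, from chr1:167663722-167663971 for Hbb, chr10:15829139-15829388 for Hba-a2 and chr8:115768643-115768892 for Alas1. Capitals mark motifs known from globin promoters. The GATA motif was searched as GATAA (in reverse written TTATC), the box bound by Krüppel-like factors as CACCC (its reverse reads GGGTG), the next box as CCAAT (reverse strand letters ATTGG) and the TATA box as TATAAA (opposite strand TTTATA).
Hbb: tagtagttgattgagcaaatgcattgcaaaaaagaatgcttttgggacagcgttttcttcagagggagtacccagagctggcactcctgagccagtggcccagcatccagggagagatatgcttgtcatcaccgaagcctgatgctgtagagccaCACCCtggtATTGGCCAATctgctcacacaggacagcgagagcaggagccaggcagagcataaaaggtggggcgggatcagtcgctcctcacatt
Hba-a2: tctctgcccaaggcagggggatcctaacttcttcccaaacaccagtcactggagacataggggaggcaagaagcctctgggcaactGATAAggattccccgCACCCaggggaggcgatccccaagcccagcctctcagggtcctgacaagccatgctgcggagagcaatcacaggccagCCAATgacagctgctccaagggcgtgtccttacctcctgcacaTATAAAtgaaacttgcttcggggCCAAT
Alas1: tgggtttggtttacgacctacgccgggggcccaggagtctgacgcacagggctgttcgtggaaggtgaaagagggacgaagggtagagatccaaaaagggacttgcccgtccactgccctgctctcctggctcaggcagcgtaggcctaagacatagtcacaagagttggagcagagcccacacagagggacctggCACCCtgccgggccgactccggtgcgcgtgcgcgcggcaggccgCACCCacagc
Positions are those of the first letter, with -1 as the last base before the start. Hbb held CACCC at -95 and, side by side and without overlap, ATTGG at -86 and CCAAT at -81. Hba-a2 held GATAA at -164, CACCC at -149, CCAAT at -71 and -5, and TATAAA at -28. Alas1 held CACCC at -54 and -10 and none of the other motifs. Such matches are common. Of 33469 rat promoters of this length, 49.2% held the CACCC box, 34.02% the CCAAT box, 23.5% the GATA motif and 12.9% the TATA box on either strand. Alas1 held 17 CG dinucleotides and each of the 2 globin promoters 5, against a median of 5 over all promoters. The window of Hba-a1 was identical to that of Hba-a2 at 241 of 250 bases (96.4%).

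The hemoglobin chains and Alas2 were about 3-fold lower in ethanol rats than in control rats, and about as low in 4 of the 6 withdrawal rats. Hbb was at 56.9 CPM in the lowest control rat, at a median of 85.7 and at 101 in the highest. It was at 16.1, 26.5 and 39.4 CPM (lowest, median and highest) in ethanol rats and at 17.6, 24.7 and 63.8 CPM in withdrawal rats. Every ethanol rat lay below every control rat, whereas withdrawal rats 2 (63.8 CPM) and 5 (59.0 CPM) lay above control rat 5, the lowest control, and the other 4 withdrawal rats within the range of the ethanol rats. The group means were 84.0 ± 15.2 CPM in control, 27.4 ± 8.76 in ethanol and 35.3 ± 20.5 in withdrawal rats (SD, n = 6 each). In the limma-voom model of all 3 groups, the log2 fold change of Hbb was -1.59 ± 0.29 (SE) between ethanol and control, -1.51 ± 0.27 between withdrawal and control and 0.08 ± 0.33 between withdrawal and ethanol. Without withdrawal rat 5, whose library stood apart, that between withdrawal and control was -1.60 for Hbb, -1.63 for Hba-a2 and -1.62 for Alas2.

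Hba-a2, an alpha chain, was less abundant than Hbb in CPM and varied with it. It was at 20.5, 30.2 and 38.2 CPM in control rats, at 6.42, 9.15 and 15.9 CPM in ethanol rats and at 5.78, 9.27 and 24.2 CPM in withdrawal rats (lowest, median and highest). Ethanol and control rats did not overlap, and withdrawal rats 2 and 5 again reached into the control range. The log2 fold change of Hba-a2 was -1.60 ± 0.31 (SE) for ethanol against control and -1.54 ± 0.28 for withdrawal against control.

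Alas2, which provides the heme that red cell precursors load into globin, was far less abundant. It was at 1.40, 2.15 and 2.81 CPM in control rats, which is 51 to 102 read pairs a rat. It was at 0.284, 0.657 and 1.05 CPM in ethanol rats and at 0.393, 0.655 and 1.55 CPM in withdrawal rats, with as few as 10 read pairs. The lowest control rat (1.40 CPM, control rat 5) was above all ethanol rats and below withdrawal rats 2 and 5. The log2 fold change of Alas2 was -1.64 ± 0.36 (SE) for ethanol against control and -1.54 ± 0.33 for withdrawal against control.

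**Figure D1:**
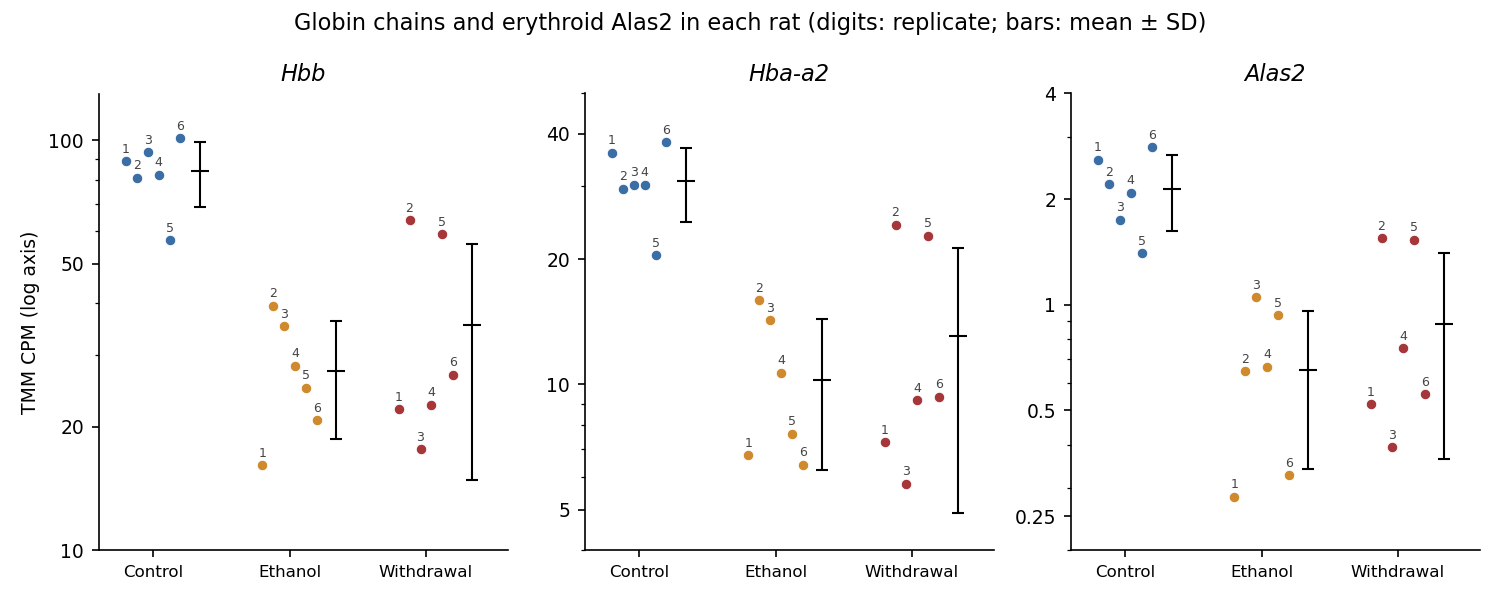
TMM CPM of Hbb, Hba-a2 and Alas2 on log axes in each of the 18 rats by group, with the replicate number at each point and the mean ± SD of 6 rats as a black bar. All ethanol rats lie below all control rats in each panel, and withdrawal rats 2 and 5 lie above the lowest control rat.

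In the control and withdrawal groups the highest and the lowest rat were the same for the 3 genes. Control rat 6 was the highest and control rat 5 the lowest control for each of them, and withdrawal rat 2 was the highest and withdrawal rat 3 the lowest withdrawal rat for each. In the ethanol group the lowest was ethanol rat 1 for Hbb and Alas2 and rat 6 for Hba-a2, and the highest was rat 2 for Hbb and Hba-a2 and rat 3 for Alas2. The index sequences that tagged the libraries fell into 3 sets, with all control rats in the first, all ethanol rats and withdrawal rats 1 and 2 in the second, and withdrawal rats 3 to 6 in the third, so the difference of control rats from the rest and that of their index set cannot be told apart. The 2 withdrawal rats with high globin levels came from different sets. Within the second set, the ethanol rats averaged 27.4 CPM of Hbb and withdrawal rats 1 and 2 had 22.1 and 63.8 CPM.

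The enzymes that most tissues use differed little between the groups. Alas1, whose product sets the pace of heme synthesis outside red cell precursors, was at 37.7, 40.5 and 45.0 CPM in control rats, at 38.2, 41.2 and 49.5 in ethanol rats and at 35.9, 42.3 and 44.7 in withdrawal rats (lowest, median and highest). All 3 groups overlapped, and the rat farthest from the rest was ethanol rat 1, at 49.5 CPM. Its log2 fold change was -0.03 ± 0.06 (SE) for ethanol against control, with a 95% interval of -0.16 to 0.10, and 0.05 ± 0.06 for withdrawal against control, with an interval of -0.07 to 0.17.

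Alad, the second enzyme, was the least abundant of the 5 by CPM. It was at 17.9, 19.9 and 21.8 CPM in control rats, at 18.6, 19.5 and 19.9 in ethanol rats and at 18.1, 19.5 and 20.2 in withdrawal rats. Both treated groups lay inside the range of the control rats.

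Urod, the fifth enzyme, was at 27.2, 28.5 and 30.1 CPM in control rats, at 28.3, 31.5 and 35.8 in ethanol rats and at 26.2, 27.9 and 30.03 in withdrawal rats. Of the ethanol rats, 4 lay above every control rat, with ethanol rat 1 highest, and 3 withdrawal rats lay below every control rat. Its means were 28.5 ± 1.11, 31.3 ± 2.73 and 28.0 ± 1.69 CPM (SD, n = 6 each). The model with 3 surrogate variables, which are unnamed sources of variation estimated from all genes, gave a log2 fold change of 0.05 ± 0.04 (SE) for ethanol against control and -0.06 ± 0.04 for withdrawal against ethanol. Without surrogate variables the latter was -0.16, and the levels of Urod had a correlation of 0.69 with the second of them.

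Cpox, which makes the protoporphyrinogen ring and in CPM was the most abundant of the enzymes, was at 44.9, 49.0 and 50.4 CPM in control rats, at 41.8, 46.3 and 52.4 in ethanol rats and at 43.7, 46.7 and 52.7 in withdrawal rats. Fech, the last enzyme, was at 33.96, 37.0 and 38.3 CPM in control rats, at 33.7, 36.4 and 39.2 in ethanol rats and at 33.02, 35.2 and 39.1 in withdrawal rats. For both, the ranges of the 3 groups overlapped. The widest log2 fold change of the 2 enzymes was that of Fech between withdrawal and control, -0.08 ± 0.04 (SE), with a 95% interval of -0.17 to -0.00071.

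**Figure D2:**
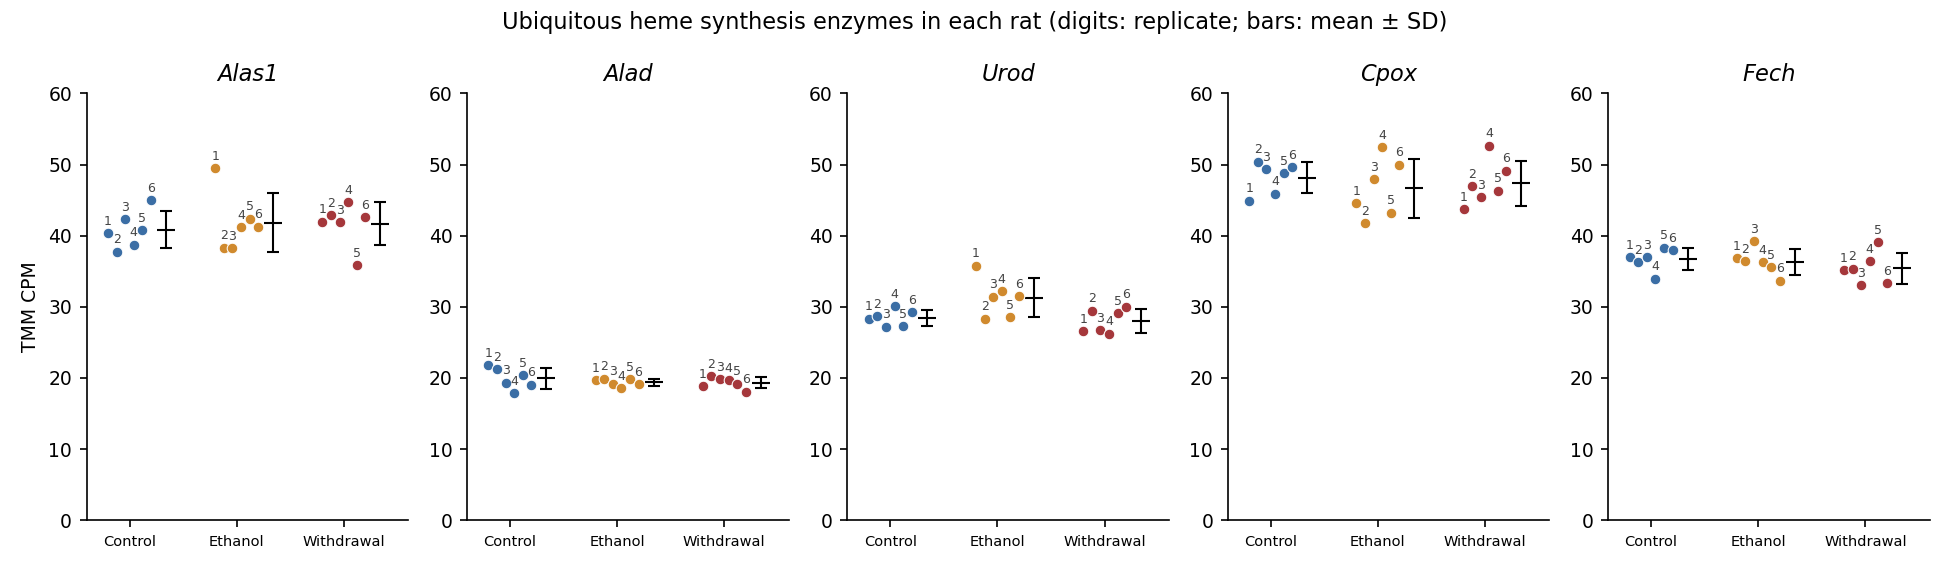
TMM CPM, on axes from 0, of Alas1, Alad, Urod, Cpox and Fech in each rat by group, with replicate numbers and the mean ± SD of 6 rats. Each gene keeps to a narrow band in all 3 groups, and ethanol rat 1 stands above the rest for Alas1 (49.5 CPM) and Urod (35.8 CPM).

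In counts of genes, which for the 8 are a description and no test, 3 of the 8 (Hbb, Hba-a2 and Alas2) were lower at q < 0.1 in ethanol than in control rats and the same 3 in withdrawal than in control rats, where 0.157% and 2.55% of the 17853 genes tested were lower at that threshold. None of the 8 passed it between withdrawal and ethanol, where 2.72% of genes did. In ethanol rats, 3 of the 8 had all rats below all control rats, as had 0.398% of genes tested. These shares are given for scale, since the 8 genes were listed with these comparisons known. Of 28 alternative fits, the calls of Hbb, Hba-a2 and Alas2 held in 20, 19 and 15 for ethanol against control. For withdrawal against control their calls held in 26, 25 and 24. The 2 comparisons with control share the control rats. Over all genes tested the median of the absolute log2 fold change was 0.08 for ethanol against control and 0.09 for withdrawal against control, and 65 and 84 genes were at or below -1. The log2 fold changes of the 5 enzymes lay between -0.08 and 0.05 in both.

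**Figure D3:**
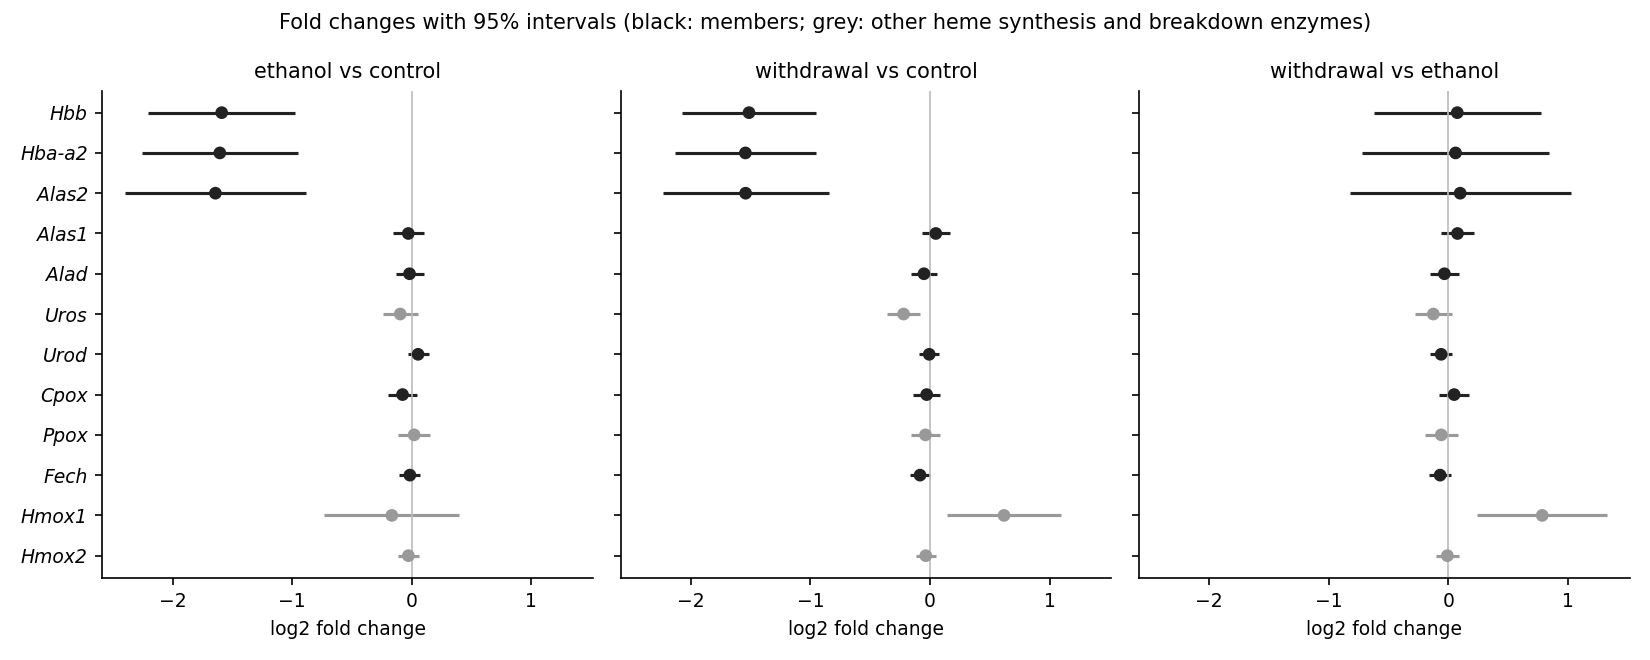
Log2 fold changes with 95% intervals from the limma-voom model for the 8 genes (black) and for Uros, Ppox, Hmox1 and Hmox2 (grey), ordered from the globins through the synthesis steps to heme breakdown. Hbb, Hba-a2 and Alas2 lie between -1.64 and -1.51 in both comparisons with control, and the enzymes Alas1, Alad, Urod, Cpox and Fech near 0 in all 3.

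Divided by exon length, so that genes can be compared, Hbb was the most abundant of the 8 and Alas2 the least in every group. In control rats the order of CPM per kb was Hbb (135 ± 24.5), Hba-a2 (56.6 ± 11.4), Urod (23.4 ± 0.910), Alas1 (19.2 ± 1.22), Cpox (17.5 ± 0.805), Alad (9.43 ± 0.697), Fech (6.82 ± 0.288) and Alas2 (1.14 ± 0.278; SD, n = 6 each). Neighbours in that order did not overlap between rats, except Alas1 and Cpox. In ethanol rats Hba-a2 averaged 18.9 CPM per kb and fell to the fourth place, between Alas1 and Cpox, and the ranges of Hbb, Urod, Alas1, Hba-a2 and Cpox each overlapped that of the next. Alas2 per kb was 5.93% ± 1.37 of Alas1 per kb in control rats, 1.81% ± 0.934 in ethanol rats and 2.46% ± 1.59 in withdrawal rats (SD, n = 6 each).

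**Figure D4:**
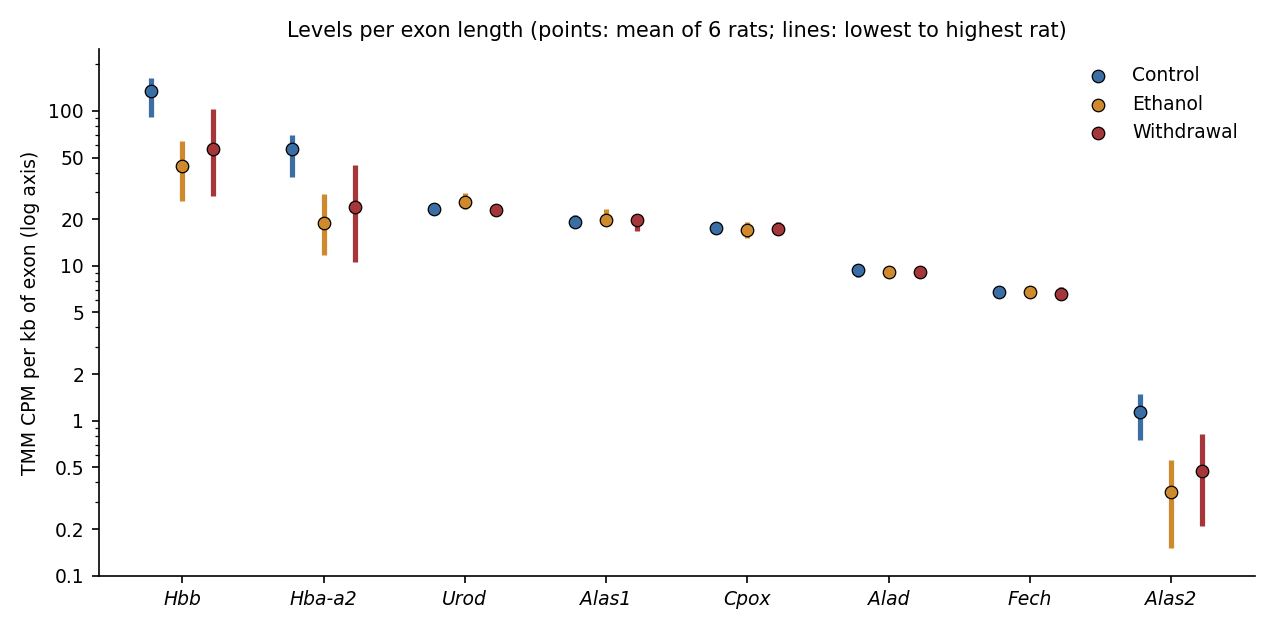
TMM CPM per kb of exon on a log axis for the 8 genes in the order of the control means, with the mean of 6 rats as a point and the lowest to highest rat as a line for each group. Alas2 is at about 1 CPM per kb in control rats and below it in all rats of the other groups, and the 5 enzymes stay within narrow ranges in all 3 groups.

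The genes also differed in how much rats of a group varied. The SD of log2 CPM within groups was 0.56 for Hbb, 0.62 for Hba-a2 and 0.64 for Alas2, which was larger than that of 89.5%, 92.1% and 92.8% of genes tested. It was 0.11 for Alas1, 0.10 for Cpox, 0.09 for Urod, 0.07 for Fech and 0.07 for Alad, and for Alad 9.25% of genes tested had a smaller one. For Hbb the spread was 16.2 times that of counting error alone, and for Alas2, with a mean of 44.1 read pairs, 2.95 times.

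Deviations of each rat from its group mean hold none of the difference between treatments, so they were tested. Over 18 rats Hbb and Hba-a2 deviated together, with Pearson's r = 0.97 and Spearman's rho = 0.95 (permutation test within groups, two-sided p = 1e-05, the smallest that 100000 permutations can give, adjusted p = 0.00028 over 28 pairs, and for rho p = 3e-05, adjusted p = 0.00084). Hbb and Alas2 had r = 0.87 and rho = 0.86 (permutation p = 0.00022 and 0.00018, adjusted p = 0.0027 and 0.0025). Hba-a2 and Alas2 had r = 0.85 and rho = 0.84 (permutation p = 0.00029 and 0.00028, adjusted p = 0.0027 and 0.0026). These were the 3 pairs of 28 with an adjusted p under 0.05.

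Withdrawal rats 2 and 5 lay farthest from the median of Hbb and of Hba-a2. Without them r was 0.93 for Hbb and Hba-a2 (adjusted permutation p = 0.00028), 0.75 for Hbb and Alas2 (adjusted permutation p = 0.098) and 0.72 for Hba-a2 and Alas2 (adjusted permutation p = 0.12). The relation of Hbb to Hba-a2 thus held without these 2 rats, and at the 0.05 threshold the 2 relations with Alas2 rested on them. Within groups r for Hbb and Hba-a2 was 0.94 in control, 0.94 in ethanol and 0.99 in withdrawal rats, and for Hbb and Alas2 it was 0.79, 0.76 and 0.96 (n = 6 each). With deviations taken within index sets as well, r was 0.97 for Hbb and Hba-a2, 0.86 for Hbb and Alas2 and 0.85 for Hba-a2 and Alas2. Within the second set (8 rats) the 3 values were 0.97, 0.84 and 0.77, the first set holds the control rats alone, and the third holds 4 rats, too few for a value.

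No pair of an enzyme with Hbb, Hba-a2 or Alas2 reached an adjusted p under 0.05. Fech had the highest positive r with Hbb (0.44, rho = 0.34, permutation p = 0.12 and 0.20, adjusted p = 0.39 and 0.58) and Alas1 the lowest (r = -0.49, rho = -0.36, permutation p = 0.051 and 0.15, adjusted p = 0.25 and 0.58). With Hba-a2 and Alas2, Fech had r = 0.53 and 0.52 (permutation p = 0.053 and 0.051, adjusted p = 0.25 for both). Alas1 had r = -0.44 with each of them. For Hbb and Alas1 r was 0.41 in control, -0.91 in ethanol and -0.52 in withdrawal rats, so its sign differed between groups. Alad, Urod and Cpox had r of 0.03, 0.08 and -0.07 with Hbb.

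**Figure D5:**
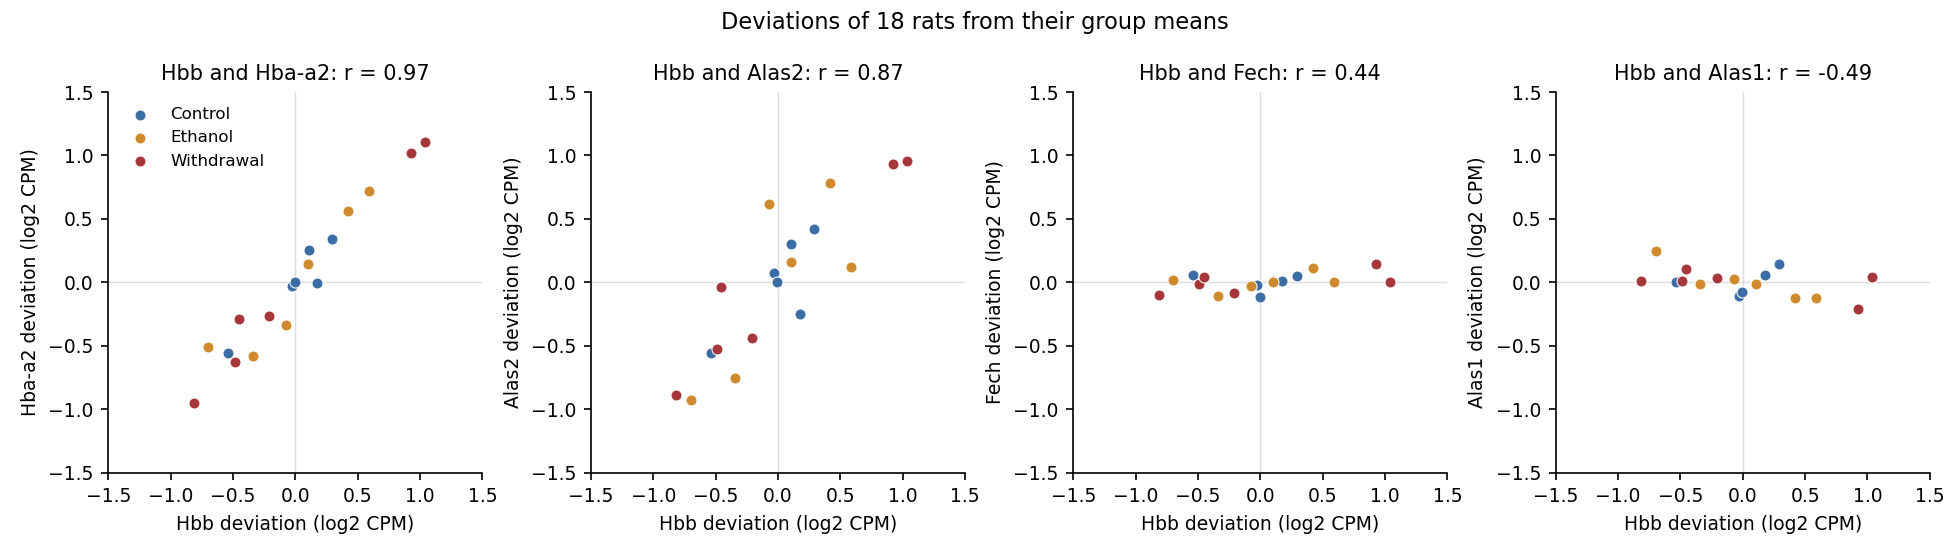
Deviation of log2 CPM from the group mean in 18 rats, with Hbb on the x axis and Hba-a2, Alas2, Fech or Alas1 on the y axis, all on one scale and coloured by group. Hba-a2 (r = 0.97) and Alas2 (r = 0.87) rise along the diagonal with Hbb, whereas the points of Fech (r = 0.44) and Alas1 (r = -0.49) lie in a flat band.

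The ratios between the chains varied less than their levels. Hbb varied 6.26-fold over the 18 rats, and the ratio of Hbb to Hba-a2 CPM ran from 2.39 to 3.27. Its mean was 2.74 ± 0.205 in control, 2.75 ± 0.399 in ethanol and 2.78 ± 0.248 in withdrawal rats (SD, n = 6 each). The ratio of Hbb to Hba-a1, a more abundant alpha chain gene, was 1.20 ± 0.0631 in control, 1.12 ± 0.0787 in ethanol and 1.07 ± 0.0511 in withdrawal rats (SD, n = 6 each), with overlapping ranges (1.12 to 1.28, 0.984 to 1.20 and 0.996 to 1.14). The ratio of Hbb to Alas2 was more variable, from 26.7 to 63.4, with means of 40.1 ± 6.93, 47.3 ± 15.4 and 40.8 ± 6.22.

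Over all genes tested, the 5 whose within-group deviations were most like those of Hbb in 18 rats were Hba-a1 (r = 0.99), Hba-a2 (0.97), Hbbl1 (0.96), Alas2 (0.87) and Hba-a3 (0.83), and these 5 were the only genes with r over 0.8. For Hba-a2 they were Hba-a1 (0.97), Hbb, Hbbl1 (0.96), Alas2 and a gene listed by the identifier 108352127, on chromosome 10 (0.84). For Alas2 they were Hbbl1 (0.87), Hbb, Hba-a2, Hba-a1 (0.85) and Nuf2, a kinetochore gene of dividing cells (0.77). For Alas1 none was a globin or another heme enzyme. The most like were an unnamed gene (identifier 102554492, 0.88), Ptpn3 (0.86), Dhx32 (0.85), Ppm1j (0.83) and Pcsk2 (0.83). These correlations are descriptions over the same 18 libraries.

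The other hemoglobin chain genes were looked up beside Hbb and Hba-a2. Of 10 measured, 3 were abundant enough to be tested, namely Hba-a1 and Hba-a3 (alpha chains) and Hbbl1 (a beta chain). All 3 were lower in ethanol and in withdrawal than in control rats at q < 0.1, as were 0.157% and 2.55% of all genes tested. In these same libraries their within-group deviations had r of 0.99, 0.83 and 0.96 with those of Hbb, so their calls are not separate support. Like Hbb and Hba-a2 these genes were listed with earlier results of these data known. Hba-a1 was at 47.7, 72.2 and 82.6 CPM in control rats, at 13.8, 23.3 and 40.1 in ethanol rats and at 17.7, 22.2 and 60.9 in withdrawal rats (lowest, median and highest). Its ethanol rats lay below all control rats, and withdrawal rats 2 and 5 were again the 2 that overlapped the controls. Its log2 fold change was -1.45 ± 0.30 (SE, limma-voom q = 0.081) for ethanol against control and -1.36 ± 0.27 (q = 0.023) for withdrawal against control.

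Hba-a3 averaged 2.35 ± 0.414 CPM in control, 0.773 ± 0.336 in ethanol and 1.01 ± 0.579 in withdrawal rats, with q = 0.056 and 0.019 against control (limma-voom). Hbbl1 averaged 26.4 ± 5.72, 10.4 ± 3.11 and 12.8 ± 8.16 CPM (SD, n = 6 each), with q = 0.084 and 0.027. Of 28 alternatives, the calls of Hba-a1, Hba-a3 and Hbbl1 held in 18, 21 and 14 for ethanol and in 24, 26 and 24 for withdrawal against control. Neither Hba-a1, Hba-a3 nor Hbbl1 passed the threshold between withdrawal and ethanol. The embryonic and fetal chains Hbe1, Hbe2, Hbg1 and Hbz and the adult chain Hbb-bs had 0 counts in every rat, which allows up to 3 counts a library, and Hbb-b1 and Hbq1b had 5 and 13 counts over all 18 rats. Since these genes resemble each other and ambiguous reads were left out, counts of 0 do not show that a chain was absent. The chains together came to 147 to 258 CPM in control, 44.0 to 111 in ethanol and 48.4 to 173 in withdrawal rats.

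Globins of other cell types were examined too. Cygb, a globin of fibroblasts and other cells, was at 34.5, 41.3 and 46.1 CPM in control rats, at 29.5, 45.4 and 53.8 in ethanol rats and at 25.5, 31.99 and 67.3 in withdrawal rats. Withdrawal rats 1 and 5 lay above every control rat and the other 4 below. The model gave a log2 fold change of -0.19 ± 0.06 (SE, limma-voom q = 0.093) between withdrawal and control, while both count models without surrogate variables gave 0.02. It gave -0.25 ± 0.06 (SE, limma-voom q = 0.073) between withdrawal and ethanol, and the calls held in 9 and 15 of 28 alternatives. Ngb, the neuronal globin, did not pass the threshold (q = 0.21 between withdrawal and control, limma-voom), with means of 4.94 ± 0.562, 5.25 ± 1.72 and 4.42 ± 1.45 CPM in control, ethanol and withdrawal rats (SD, n = 6 each).

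The other steps of heme synthesis were taken from a list. Of 12 other synthesis enzymes and mitochondrial porphyrin carriers, none passed q < 0.1 between ethanol and control, where 0.493% of all genes did, and 1, Uros, was lower in withdrawal than in control rats, where 5.41% of all genes tested were called. Uros, the fourth enzyme, closes the ring. It was at 11.0, 12.5 and 14.8 CPM in control rats and at 10.1, 10.8 and 11.6 in withdrawal rats, and 4 withdrawal rats lay below every control rat. Its log2 fold change was -0.22 ± 0.06 (SE, limma-voom q = 0.079), and the call held in 13 of 28 alternatives. Ppox, the seventh enzyme, had log2 fold changes of -0.04 ± 0.06 (SE) for withdrawal and 0.02 ± 0.06 for ethanol against control. Tmem14c, a porphyrin carrier, was lower in withdrawal (34.9 ± 1.87 CPM) than in ethanol rats (39.3 ± 1.47, SD, n = 6 each, limma-voom q = 0.089), a call that held in 13 of 28 alternatives.

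Of 14 tested genes for breakdown, transport and later use of heme, 1 passed, beside 5.41% of all genes tested between withdrawal and control. This gene, Hp, whose product binds free hemoglobin, was lower in withdrawal (3.72 ± 0.553 CPM) than in control rats (5.14 ± 0.926, SD, n = 6 each), with a log2 fold change of -0.42 ± 0.12 (SE, limma-voom q = 0.071, held in 16 of 28 alternatives). Hmox1, the inducible heme oxygenase, was at 4.19, 4.89 and 5.55 CPM in control rats, at 3.75, 4.67 and 5.35 in ethanol rats and at 4.65, 6.43 and 12.3 in withdrawal rats. Withdrawal rats 1 (12.2 CPM), 5 (7.50) and 6 (12.3) lay above all other rats and the other 3 withdrawal rats within the control range, and the difference from control did not pass (log2 fold change 0.62 ± 0.23, q = 0.14, limma-voom). Hmox2, the constitutive form, was at 67.7 ± 2.02, 65.3 ± 2.67 and 67.3 ± 4.78 CPM in control, ethanol and withdrawal rats (SD, n = 6 each).

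Of 14 iron genes tested, 2 were higher in withdrawal rats at q < 0.1, as were 2.85% of all genes tested, and 1 of these was also higher in ethanol rats, where 0.493% of all genes passed in either direction. Fth1, the heavy chain of ferritin, which stores iron, was at 1250, 1305 and 1408 CPM in control rats, at 1450, 1626 and 1917 in ethanol rats and at 1260, 1534 and 1629 in withdrawal rats. All ethanol rats and 5 withdrawal rats lay above every control rat, and withdrawal rat 5 lay among the controls. Its log2 fold change was 0.29 ± 0.05 (SE, limma-voom q = 0.036) for ethanol against control and 0.22 ± 0.04 (q = 0.022) for withdrawal against control, and both calls held in most alternatives (24 and 23 of 28). Cp, a copper enzyme that oxidizes iron for export, had a higher level in withdrawal rats (38.3 ± 14.8 CPM) than in controls (24.3 ± 1.38, SD, n = 6 each, log2 fold change 0.66 ± 0.14, q = 0.029, limma-voom, held in 23 of 28 alternatives). The other 12 iron genes tested, among them Tfrc, Tf and Ftl1, did not pass in any comparison.

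Of 13 tested regulators of Alas1 and the globins, Npas2, a clock factor, had a higher level in withdrawal rats (68.1 ± 9.00 CPM) than in controls (54.2 ± 4.47, SD, n = 6 each, log2 fold change 0.27 ± 0.07, limma-voom q = 0.047, held in 21 of 28 alternatives). Ppargc1a, a coactivator known to raise Alas1 in fasting liver, was higher in withdrawal than in ethanol rats (73.3 ± 7.37 against 65.4 ± 3.33 CPM, limma-voom q = 0.094), and that call held in 7 of 28 alternatives. Gata1, the erythroid factor, had 0 counts in every rat, which allows up to 3 counts a library, and Klf1 averaged 1.02, 1.01 and 0.741 CPM in control, ethanol and withdrawal rats. Of the 58 related genes tested, 9 passed for withdrawal against control, 4 for ethanol against control and 3 for withdrawal against ethanol, beside 5.41%, 0.493% and 2.72% of all genes tested. Without the hemoglobin chains 6, 1 and 3 of 55 passed. Without withdrawal rat 6 the counts of the 58 were 1, 2 and 0, and all genes called between withdrawal and control were 23 in place of 965.

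Genes that mark blood cells were checked beside the globins. Of 20 red cell genes, the defining ones were near 0. Slc4a1, the red cell anion exchanger, averaged 0.199, 0.0462 and 0.126 CPM in control, ethanol and withdrawal rats, with at most 13 read pairs a rat, and its highest withdrawal rat was rat 5 (0.349 CPM). Ahsp, which chaperones alpha chains, averaged at most 0.112 CPM in any group, and Rhag had 4 counts over the control rats and 0 in every other rat, which allows up to 3 counts a library. The summed level of the list, most of it Car2, Bnip3l and Bpgm, which brain cells also express, was 648 to 761 CPM in control, 630 to 839 in ethanol and 636 to 757 in withdrawal rats. Of its 12 tested genes, none passed q < 0.1 for ethanol against control, and 1 was lower in withdrawal rats than in controls.

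White cell genes summed to 16.5 to 19.7 CPM in control, 12.4 to 16.8 in ethanol and 7.26 to 22.8 in withdrawal rats, most of it Cd3e and Ptprc, with S100a8, S100a9 and Mpo at most 0.242 CPM on average in any group, and none of 3 tested passed. The lowest sum was that of withdrawal rat 5, where Cd3e, a gene known from T cells, had 10 counts, against 124 to 487 in the other rats. Cd3g, also of T cells, had at most 8 counts in any rat. Whether the Cd3e counts came from T cells was not tested. Of the platelet genes Ppbp had 2 counts in all, Gp1bb 0 and Pf4 0.979 to 1.11 CPM by group. Their summed level, nearly all of it Nrgn, which neurons express, was 645 to 862 CPM in control, 409 to 955 in ethanol and 480 to 878 in withdrawal rats, and none of 4 tested passed. Of 11 genes of vessel cells 5 (Pecam1, Flt1, Kdr, Vwf and Pdgfrb) exceeded the control level in withdrawal rats at q < 0.1 (as did 2.85% of all genes tested), calls that held in 15 to 24 of 28 alternatives, and none differed at q < 0.1 for ethanol against control, where 0.493% of all genes did. Their sum ran from 510 to 584 CPM in control, 540 to 661 in ethanol and 559 to 706 in withdrawal rats. Choroid plexus genes summed to 1116 to 2327 CPM in control, 1504 to 5474 in ethanol and 29.7 to 5501 in withdrawal rats, and none of 7 tested passed. Ttr, the transthyretin gene that made up most of this sum, was at 21.8 CPM in withdrawal rat 4 and 20.3 in withdrawal rat 5, which was high in the globins, against at least 960.4 in every other rat. It was highest in ethanol rat 1 (4743 CPM), the rat with the lowest Hbb level. Withdrawal rat 4 had 22.6 CPM of Hbb, and withdrawal rat 2, with the highest Hbb of its group, 2135 CPM of Ttr. Over all 18 rats the within-group deviations of Ttr and Hbb had r = -0.25. For the other choroid plexus genes tested, r with Hbb ran from -0.26 to -0.16. The part of these cell types in the globin levels was not tested.

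Markers of the labelled tissue were present in every rat, with the departures of withdrawal rat 5 given above. The 12 hippocampal neuron and glia genes summed to 14423 to 18562 CPM. Gfap, of astrocytes, was above control in withdrawal rats (log2 fold change 0.54 ± 0.15, SE, limma-voom q = 0.077), and Prox1, of dentate granule cells, was lower (-0.26 ± 0.08, q = 0.097), calls that held in 13 and 8 of 28 alternatives, and 2 of 12 genes stand beside 5.41% of all genes tested. Prox1 was at 72.9 CPM in withdrawal rat 1 and 52.9 in withdrawal rat 5, and at 112 to 147 in the other 4 withdrawal rats, against 117 to 148 in control rats. Gfap was also higher in withdrawal than in ethanol rats (0.74 ± 0.17, limma-voom q = 0.058).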

How the data were processed

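Libraries made from the dorsal hippocampus of 18 rats (6 control, 6 ethanol and 6 withdrawal rats) with a strand-specific TruSeq kit were sequenced as read pairs, and RNA integrity numbers were all above 8. The authors used STAR 2.5.2a with Rnor_6.0 (NCBI annotation 106) and featureCounts 1.5.0, which counted pairs on exons by strand and skipped multi-mapping and chimeric ones, and deposited the raw counts. Rats were grouped by their treatment labels. Of the 38445 identifiers, 29322 were named from the RefSeq table of GRCr8 and 9123 had no name there. No 2 rats of a group had counts that agreed within sampling noise.

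Counts were scaled by TMM (edgeR 4.0.16). Genes above 0.5 CPM in at least 1 rat (17853) were fitted with limma-voom (limma 3.58.1, R 4.3.3) in one model of the 3 groups with 3 surrogate variables (sva 3.50.0, prior count 2), and two-sided p-values were adjusted by Benjamini and Hochberg within each comparison, with a threshold of q < 0.1. The number of surrogate variables and of rats in the cutoff is not given in the sources used here. The fit was tested on simulated counts with known changes. Correlations of deviations from group means were tested by 100000 permutations of rats within groups (Python 3.11.15, scipy 1.17.1). Alternatives were other numbers of surrogate variables, edgeR's quasi-likelihood test and DESeq2 1.42.0 without them, other scaling and filters, the replicate number as a block, 2 groups alone and each rat left out. The genes, the related and marker lists, the tests and the alternatives were chosen with earlier results of these data known. Genes outside the 8 were named if they passed q < 0.1, were the most abundant of their list, were most like Hbb, Hba-a2, Alas2 or Alas1, were other hemoglobin chains, or were Uros, Ppox, Hmox1 or Hmox2. Some genes that these rules name are not reported here. Those named in addition (Ngb, Klf1, Gata1, Tfrc, Tf, Ftl1 and single cell type markers) were chosen after their values were seen.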

Additional observations from a re-analysis of the deposited data

Results flagged for a closer look

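Of 45 groups of 6 rats examined over the named genes, 3 had a rat far from the other 5 by Dixon's test at the 95% level, where chance gives about 1 in 20. Alas1 was at 49.5 CPM in ethanol rat 1 (ratio 0.63), above the other 5 ethanol rats. Alas1 was at 35.9 CPM in withdrawal rat 5 (ratio 0.69), below the other 5 withdrawal rats. Hba-a3 was at 2.10 CPM in withdrawal rat 5 (ratio 0.63), above the other 5. Withdrawal rat 5 also held the second highest Hbb, Hba-a2 and Alas2 levels of its group.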

How the results depend on the processing

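The log2 fold changes of the 8 genes kept their place within the spread of the rats in all alternatives except that of Urod between withdrawal and ethanol, which was -0.16 without surrogate variables, -0.16 with edgeR's quasi-likelihood test, -0.16 with DESeq2 and -0.16 with the replicate block, against -0.06. The cause was not tested, although all 4 fits have no surrogate variables. Hbb ranged from -1.88 to -1.25 between withdrawal and control and from -1.78 to -1.29 between ethanol and control, and Hba-a2 and Alas2 moved alike. Their calls were less stable than their fold changes. Without withdrawal rat 6 the calls of Hba-a2 and Alas2 between withdrawal and control were lost, and that of Hbb was kept. Cygb turned from -0.19 to 0.0214 with edgeR and 0.0219 with DESeq2 for withdrawal against control.

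Counts of called genes moved most. Between withdrawal and control, 965 genes and 9 related genes were called, and 41 and 1 without surrogate variables, 33 and 0 with edgeR, 594 genes with 2 surrogate variables, 435 with DESeq2, 486 without a filter, and 0 and 0 with the replicate block. Between ethanol and control, 88 and 4 were called, and 50 genes without surrogate variables, 221 with 4, 431 with DESeq2, 28 with the 2 groups alone, 9 and 1 without a filter, and 0 and 0 with the replicate block. Between withdrawal and ethanol, 486 and 3 were called, and 260 and 0 with 2 surrogate variables, 896 and 6 with 4, 1443 and 6 with DESeq2, 166 and 0 without a filter, 0 and 0 with the 2 groups alone, and 14 and 0 with the replicate block. Leaving out 1 rat gave 23 to 1911, 0 to 258 and 0 to 1800 genes, and 1 to 16, 0 to 5 and 0 to 10 related genes, in the 3 comparisons in that order. Of the 25 calls of related and marker genes, 22 were lost without withdrawal rat 6, 15 without control rat 4, 13 without control rat 6, and between 1 and 11 without each other rat. With the replicate block 25 were lost, with edgeR 20, without surrogate variables 18, without a filter 13, with DESeq2 12 and with DESeq2's size factors 0. Of the 28 pairs of genes, 3 correlated at the threshold, and 0 in control, 1 in ethanol and 1 in withdrawal rats alone, where 6 rats limit the test, and 1 without the 2 rats farthest from the median. The 3 pairs held in all 18 fits with 1 rat left out and with the replicate block.

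Rats with the same replicate number are different animals. Of 18 pairs of rats with the same number in 2 groups, 4 had deviations that correlated above 0.1 (range -0.32 to 0.38), and 4 correlated best with their own number, so the number does not pair the rats. Depth limits Alas2, with 10 to 102 read pairs a rat, and the blood cell markers, most of which were below the cutoff. Ambiguous reads of the hemoglobin genes were left out of the counts.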
